A study of Mus musculus with 4 samples.

Results

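The 10 genes described here encode proteins that place, remove or bind N6-methyladenosine (m6A) in RNA: Mettl3, Mettl14, Mettl16 and Wtap (writers), Fto and Alkbh5 (erasers), and Ythdf1, Ythdf2, Ythdf3 and Ythdc1 (readers). They were taken by name from a table with 24497 mouse gene rows, and each has 1 row. RNA was sequenced from leukaemic cells of 2 genotypes, with 2 libraries labelled WT and 2 labelled Tet2 KO. In both groups, bone-marrow stem cells of the donor mice had been turned leukaemic with NRAS and AE9a, a truncated form of the AML1-ETO fusion, grown with SCF, IL-3 and IL-6 and selected with G418 and puromycin. The cells were then grown in CD45.1+ recipients aged 6 to 8 weeks that had received 900 cGy of radiation, and donor-type CD45.2 cells were enriched from the spleen. The labels give no separate mice, clones or pools for the libraries, so each p-value reflects how far these particular libraries lie from each other, which could be purely technical.

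m6A is the most common internal modification of messenger RNA. METTL3 is the catalytic subunit of the main writer, METTL14 is its RNA-binding partner, and WTAP anchors both to the larger complex. Readers of the YTHDF family act on methylated RNA in the cytoplasm, where they are known for speeding its decay and for effects on translation, and YTHDC1 acts in the nucleus. In acute myeloid leukaemia, METTL3, METTL14, FTO, ALKBH5 and YTHDF2 have each been studied as genes on which leukaemic growth depends. TET2 oxidises 5-methylcytosine, mostly in DNA at CG dinucleotides, and is often mutated in myeloid disease.

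Levels are in TPM, which counts transcripts of a gene per fixed total of transcripts in a library and corrects for gene length. Estimated depth was 21.8 to 27.5 M reads (M, 10 to the power 6), and the 10 genes had between 342 and 5641 estimated reads in a library. The WT libraries lay close to each other, with a variance 1.17-fold that of read sampling (1.32-fold over the 1657 genes with the most reads), so their mean stands as a single sample (n = 1). For the Tet2 KO libraries (n = 2) it was 8.36-fold (38.4-fold over 1736 such genes). Several features moved with the labels. ERCC spike-in RNAs took 4.66% and 4.62% of TPM in WT and 2.95% and 3.19% in Tet2 KO. Rn45s took 0.92% and 0.89% in WT and 0.13% and 0.30% in Tet2 KO. The 20 most abundant genes of each library took 11.8% in both WT libraries and 22.2% and 19.9% in Tet2 KO. Runx1t1, the mouse gene for ETO, was at 31.6 and 30.9 TPM in WT and 146 and 205 in Tet2 KO. Whether reads of the introduced AE9a add to that row was not tested. The summed TPM of 12 neutrophil markers was 1612 and 1636 in WT and 95893 and 79103 in Tet2 KO. Of the 12, 11 were called higher. The other, Mmp9, was at 1.08 and 1.13 in WT and 164 and 63.6 in Tet2 KO, a difference that was not called. Of 11 monocyte and macrophage markers tested, 8 fell. The 12 listed summed to 3540 TPM in both WT libraries against 1686 and 1712 in Tet2 KO. Ly6c2, the most abundant of them, was at 1006 and 1005 in WT and 1042 and 1099 in Tet2 KO. Ly6c2 and Spic had positive log2 differences (0.090 and 0.71) and Mrc1 a negative one (-1.22), none of them called. All 6 dendritic cell markers tested fell. T and NK cell markers summed to at most 7.0 TPM in any library, with Ncr1 at 0 in all, and B cell markers to at most 20.8. Erythroid markers reached 47.8 TPM in the second Tet2 KO library and at most 7.92 in the others. Ptprc, which encodes CD45, was at 292 and 296 TPM in WT and 413 and 396 in Tet2 KO; the gene marks leukocytes. Tet2 itself was at 43.5 and 43.7 TPM in WT and at 63.7 and 68.1 in the libraries labelled Tet2 KO. The targeted gene was therefore not lower in them, and a whole-gene value does not check a deleted exon. All 10 interferon-response genes listed fell, from summed levels of 5669 and 5721 TPM to 91.8 and 113. In bulk samples, fewer cells of a type and less RNA per cell cannot be told apart.

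All 10 genes were expressed well enough to be tested, and 2 passed the test between the genotypes. Fto fell to 0.445 of its WT level and Ythdf3 rose to 1.53 times its WT level. No difference passed the test for the other 8. Calls were made with limma on log2(TPM + 1), with Benjamini-Hochberg adjusted p under 0.05 over 11919 genes. By that rule 48.8% of all genes tested were called, 22.1% higher and 26.7% lower, so 1 call in each direction among 10 genes is no result about them as a group. The WT and Tet2 KO libraries did not overlap for 8 of the 10 genes (3 higher and 5 lower in Tet2 KO), against 87.0% of all genes tested. The median absolute log2 difference was 0.36 for the 10 genes and 0.61 over all genes, and the median signed difference was -0.10 and -0.12.

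The calls depended on the libraries and the scale. With both WT libraries as samples, 2 of the 10 genes were called higher and 4 lower, against 29.5% and 37.9% of all genes tested. Without Tet2 KO replicate 1 the counts were 2 and 5 (all genes, 36.3% and 41.8%), and without Tet2 KO replicate 2 they were 3 and 5 (33.3% and 47.6%). Those fits took both WT libraries as samples, so a gene's own spread in them comes only from WT. Scaling to the ERCC total raised the median of all genes from -0.12 to 0.43, and 5 of the 10 genes were then called higher and 0 lower, against 41.5% and 12.5% of all genes tested. None of these counts is a result about the 10 genes as a group. Under that scaling 9 of 10 log2 differences were positive, and their median was 0.48. Directions below hold for the TPM scale, and the ERCC-scaled value is given for each of the 10 genes. The plot of all settings shows the spread of each gene over the 14 alternatives.

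**Figure D1:**
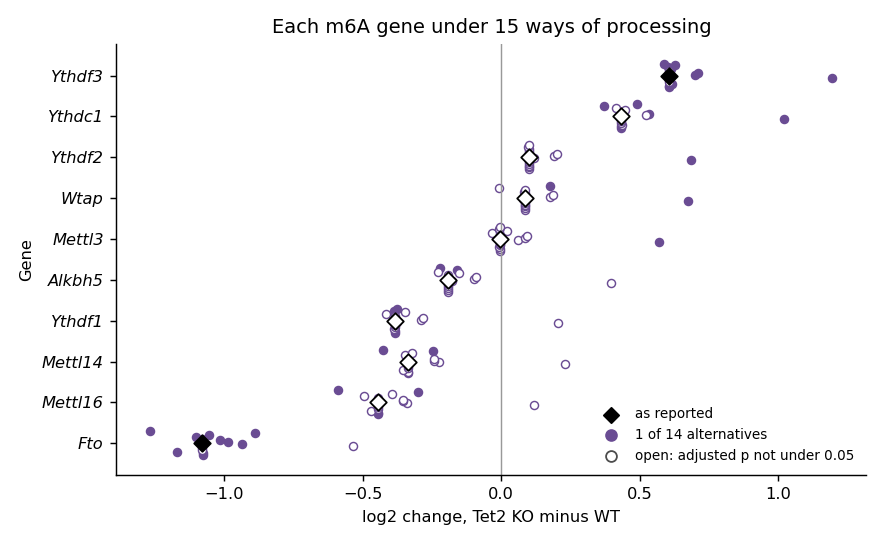
Log2 difference, Tet2 KO minus WT, of each of the 10 genes as reported (diamonds) and under the 14 alternatives (points), filled where the adjusted p is under 0.05. Fto is below 0 and Ythdf3 above 0 in all of them, and the rightmost point of each gene is ERCC scaling.

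**Figure D2:**
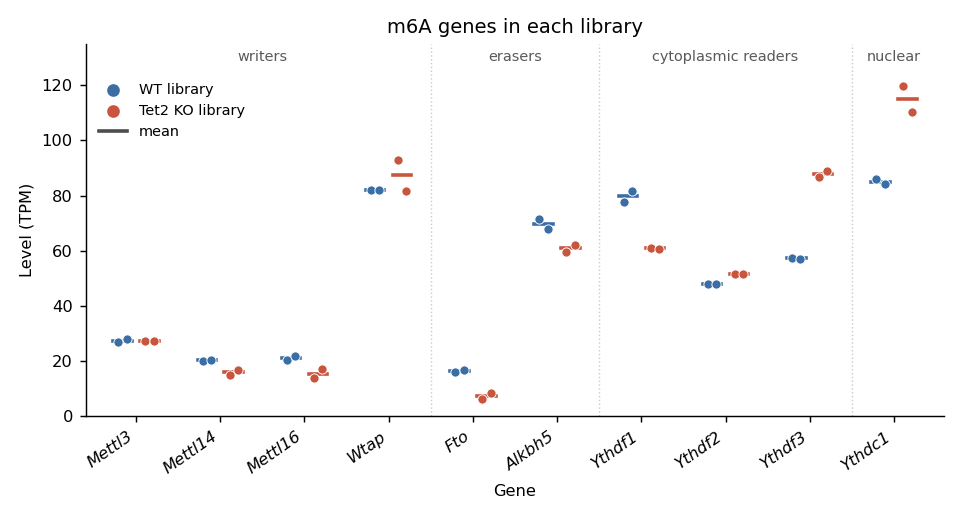
Level in TPM of each of the 10 genes, grouped by role, in the 2 WT (blue) and 2 Tet2 KO (red) libraries, each point being 1 library and each bar the group mean. Fto lies at 16.0 and 16.6 in WT and at 6.19 and 8.33 in Tet2 KO, while the points of Mettl3 overlap.

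Among the writers, none passed the test. Mettl3, the catalytic subunit, was measured at 26.9 and 28.02 TPM in WT, with 27.4 and 27.3 in Tet2 KO. The groups overlapped, and the log2 difference was -0.01 ± 0.22 (SE; 95% interval -0.47 to 0.45; limma adjusted p = 0.984). With ERCC scaling it was 0.57 and was called higher. Wtap, the regulatory subunit, was the most abundant writer at 82.1 and 82.2 TPM in WT and 93.01 and 81.7 in Tet2 KO. These groups also overlapped, with a log2 difference of 0.085 ± 0.20 (limma adjusted p = 0.743), and 0.67, called higher, with ERCC scaling.

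Mettl14, the RNA-binding partner of METTL3, was at 20.1 and 20.5 TPM in WT and 14.8 and 16.95 in Tet2 KO. Both Tet2 KO libraries were below both WT libraries, yet the log2 difference of -0.34 ± 0.25 missed the threshold (limma adjusted p = 0.282; with both WT libraries as samples 0.0408, in a range of 0.00256 to 0.431 over the alternatives). Mettl16, a separate methyltransferase, was at 20.4 and 21.9 TPM in WT and 13.7 and 16.99 in Tet2 KO. Here too the groups did not overlap, and the log2 difference was -0.45 ± 0.26 (limma adjusted p = 0.163). With both WT libraries as samples Mettl16 was called lower (limma adjusted p = 0.0365, in a range of 0.00168 to 0.629). With ERCC scaling the differences were 0.23 for Mettl14 and 0.12 for Mettl16, so the directions depended on the scale.

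METTL16 is known for methylating hairpins in the 3′ untranslated region of Mat2a, the gene for the enzyme that makes the methyl donor S-adenosylmethionine (SAM). The nonamers TACAGAGAA and TACAGAAAA were searched on the sense strand of annotated 3′ untranslated regions. Mat2a held 6, of which 5 were TACAGAGAA. Of 20979 genes, 877 (4.18%) held at least 1, and Mat2a was the only gene with 6 or more. They are shown because they are the known link between a member and the methyl donor. The nonamer is in capitals with 10 bases on each side (mm10, minus strand of chromosome 6, annotation GENCODE vM21).

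Site 1, chr6:72434235-72434263: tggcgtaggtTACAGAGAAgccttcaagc
Site 2, chr6:72433451-72433479: ccttgtgataTACAGAGAAgtcacagggc
Site 3, chr6:72433272-72433300: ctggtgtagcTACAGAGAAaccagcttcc
Site 4, chr6:72433157-72433185: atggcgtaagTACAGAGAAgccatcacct
Site 5, chr6:72433046-72433074: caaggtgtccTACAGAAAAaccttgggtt
Site 6, chr6:72432938-72432966: gctggtgtggTACAGAGAAgccagcttgt

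Mat2a itself was at 160 and 163 TPM in WT and at 140 and 152 in Tet2 KO. The difference did not pass the test (log2 -0.15 ± 0.21; limma adjusted p = 0.577), and was 0.44 with ERCC scaling.

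Of the 2 erasers, only Fto passed the test. FTO is a demethylase of m6A and of related marks near the cap. Its level was 16.0 and 16.6 TPM in WT and 6.19 and 8.33 in Tet2 KO, so both Tet2 KO libraries lay well below WT. The log2 difference was -1.08 ± 0.30 (95% interval -1.71 to -0.45; limma adjusted p = 0.00690). Fto was also the least abundant of the 10 genes in every library. Its absolute difference stood at the 72.2nd percentile of all genes tested. The call was lost in 2 of the 14 alternatives: its limma adjusted p was 0.103 after ERCC scaling (log2 -0.54) and 0.196 with every gene row tested, in a range of 0.000146 to 0.196. Neutrophil, monocyte and dendritic cell markers and the spike-in share, given above, moved with the same libraries, and their part in the difference was not tested.

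Alkbh5, the other m6A demethylase, was at 71.6 and 67.9 TPM in WT and 59.7 and 62.3 in Tet2 KO. The groups did not overlap, but the log2 difference of -0.19 ± 0.19 did not pass the test (limma adjusted p = 0.417). With ERCC scaling it was 0.40. Within each library Alkbh5 exceeded Fto 4.47-fold and 4.09-fold in WT, and 9.64-fold and 7.47-fold in Tet2 KO.

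Fto lies on chromosome 8 at 91313525 to 91668439 of mm10, on the plus strand, with 8 exons in its longest coding transcript. Its promoter is shown because Fto has the largest difference among the 10 genes on the TPM scale (with ERCC scaling, Ythdf3 does) and because CG dinucleotides are where TET2 acts. The sequence is from RefSeq on GRCm38.p6, 250 bases before to 50 after the start, with CG in capitals, at chr8:91313275-91313574. DNA methylation was not measured in these libraries.

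Fto promoter: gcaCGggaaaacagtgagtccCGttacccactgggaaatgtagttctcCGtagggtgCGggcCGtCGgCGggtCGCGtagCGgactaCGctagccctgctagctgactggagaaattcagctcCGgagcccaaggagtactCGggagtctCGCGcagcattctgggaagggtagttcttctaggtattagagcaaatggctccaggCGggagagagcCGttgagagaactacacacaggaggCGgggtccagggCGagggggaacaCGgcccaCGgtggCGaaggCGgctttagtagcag

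The window holds 23 CG dinucleotides, a count at the 79.3rd percentile of 32851 promoter windows, whose median is 7. Its GC content is 60.7%. For 8 of the 10 genes the table held such a window, with 17 to 48 CG dinucleotides.

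Of the 4 readers, only Ythdf3 passed the test. YTHDF3 is a cytoplasmic reader that works with YTHDF1 and YTHDF2. It was at 57.5 and 57.1 TPM in WT and at 86.6 and 89.0 in Tet2 KO. Both Tet2 KO libraries lay above both WT libraries and close to each other. The log2 difference was 0.61 ± 0.19 (95% interval 0.21 to 1.01; limma adjusted p = 0.0146), at the 50.0th percentile of absolute differences over all genes tested. With ERCC scaling it was 1.20, also called. The call was lost with every gene row tested (limma adjusted p = 0.0711) and without the variance trend and robust estimation (0.0623), in a range of 0.000154 to 0.0711 over the 14 alternatives. As for Fto, the part of the cell type markers and spike-in share was not tested.

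Ythdc1, the nuclear reader, which acts in splicing and export, was at 86.1 and 84.1 TPM in WT and 120 and 110 in Tet2 KO. The libraries did not overlap, and the log2 difference was 0.43 ± 0.20 (95% interval 0.01 to 0.85). It missed the threshold (limma adjusted p = 0.0828). With ERCC scaling it was 1.02. It was called under 6 of the 14 alternatives, including the use of both WT libraries as samples (limma adjusted p = 0.00742), in a range of 0.000259 to 0.166.

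Ythdf1, known for its part in translation of methylated RNA, was at 77.9 and 81.6 TPM in WT and at 61.1 and 60.7 in Tet2 KO. Ythdf2, the reader best known for decay of methylated RNA, was at 48.0 in both WT libraries and at 51.6 and 51.4 in Tet2 KO. Neither group pair overlapped, and neither passed the test. For Ythdf1 the log2 difference was -0.38 ± 0.19 (limma adjusted p = 0.102), and 0.21 with ERCC scaling. Ythdf1 was called lower with both WT libraries as samples (limma adjusted p = 0.00729, in a range of 0.00140 to 0.342). For Ythdf2 it was 0.099 ± 0.19 (limma adjusted p = 0.687), and 0.68, called higher, with ERCC scaling.

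**Figure D3:**
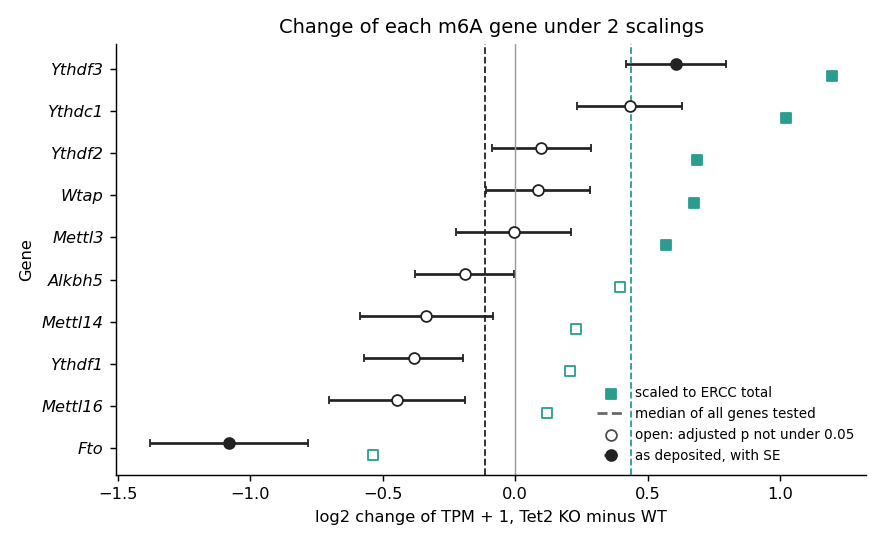
Log2 difference, Tet2 KO minus WT, of the 10 genes on the deposited TPM scale (circles, bars of 1 SE from limma) and scaled to the ERCC total (squares), filled where the adjusted p is under 0.05. Dashed lines are the medians of all genes tested (-0.12 and 0.43); on the deposited scale only Fto and Ythdf3 are filled, and with ERCC scaling 5 genes are, all higher.

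Ratios within a library do not depend on how libraries are scaled. Ythdf1 made up 42.5% and 43.7% of the summed TPM of the 3 YTHDF genes in WT, and 30.7% and 30.2% in Tet2 KO. Ythdf3 made up 31.4% and 30.6% in WT, and 43.5% and 44.3% in Tet2 KO. The largest transcript share of the 3 was thus that of Ythdf1 in both WT libraries and of Ythdf3 in both Tet2 KO libraries. Protein was not measured in these libraries. The share of Ythdf2 was 26.2% and 25.7% against 25.9% and 25.6%, and the groups overlapped.

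**Figure D4:**
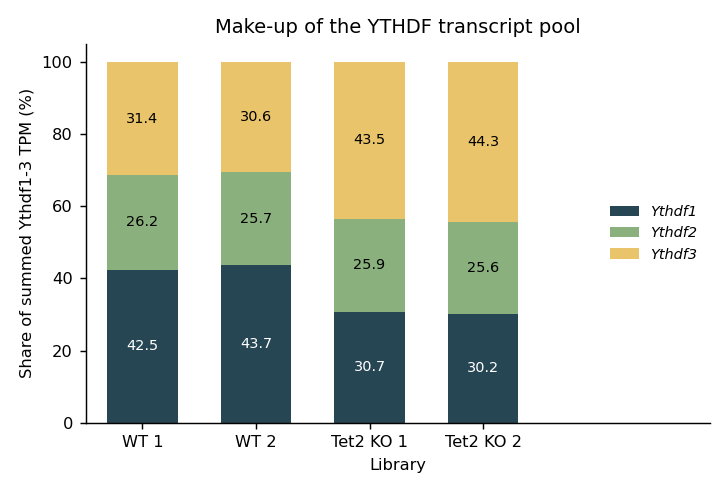
Share of the summed TPM of Ythdf1, Ythdf2 and Ythdf3 taken by each, in percent, in the 4 libraries. Ythdf1 and Ythdf3 exchange first place between the WT and Tet2 KO libraries, and the share of Ythdf2 overlaps between them.

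The ratio of Ythdf3 to Ythdf1 was 0.738 and 0.700 in WT and 1.42 and 1.47 in Tet2 KO. Mettl14 relative to Mettl3 was 0.747 and 0.731 in WT and 0.541 and 0.621 in Tet2 KO. Mettl16 relative to Mettl3 was 0.758 and 0.783 in WT, against 0.501 and 0.623. Of all genes tested, 87.0% had libraries apart in their levels, and ratios of other genes were not computed. Beside that share, the libraries were apart for 6 of the 7 ratios computed, which is no result about them as a group. Wtap relative to Mettl3 was the exception, at 3.05 and 2.93 against 3.40 and 2.99. An exact permutation test of 2 against 2 libraries cannot go below p = 0.333, two-sided, which is the value for each ratio that did not overlap.

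By level, Ythdc1 was the most abundant of the 10 genes in every library and Fto the least. Order in WT ran Ythdc1, Wtap, Ythdf1, Alkbh5, Ythdf3, Ythdf2, Mettl3, Mettl16, Mettl14 and Fto, and only Mettl16 and Mettl14 overlapped as neighbours. In Tet2 KO the order was Ythdc1, Ythdf3, Wtap, Alkbh5, Ythdf1, Ythdf2, Mettl3, Mettl14, Mettl16 and Fto. There Ythdf3 and Wtap, Alkbh5 and Ythdf1, and Mettl14 and Mettl16 overlapped. Summed TPM of the 4 writers was 149 and 153 in WT and 149 and 143 in Tet2 KO, and that of the 2 erasers was 87.6 and 84.5 against 65.8 and 70.6. The cytoplasmic readers summed to 183 and 187 in WT and to 199 and 201 in Tet2 KO.

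The genes lie on 8 chromosomes of mm10, in the GENCODE vM21 annotation. Exons are counted in the longest coding transcript of each gene, and other transcripts can differ. Ythdf1 (chr2:180904377-180920949, minus strand), Ythdf2 (chr4:132184912-132212303, minus) and Ythdf3 (chr3:16183212-16217037, plus) each have 5 exons, and Ythdc1 (chr5:86804221-86836659, plus) has 17. Mettl3 (chr14:52294841-52305128, minus) has 11 exons, Mettl14 (chr3:123368297-123386108, minus) 7, Mettl16 (chr11:74770830-74828525, plus) 10 and Wtap (chr17:12966796-12994169, minus) 6. Alkbh5 (chr11:60536381-60558512, plus) has 4.

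Some of these reads cannot be assigned with certainty. Of the 50-nt windows of Ythdc1 transcripts, 18.2% also occur in the overlapping model Gm43055; 9.02% of Wtap windows occur in Gm14292 and 8.55% of Ythdf2 windows occur elsewhere, mostly in Gm6823. Mettl3, Mettl14, Fto, Ythdf1 and Ythdf3 shared 0 windows with other genes, and no member shared one with another. Windows came from the longest coding transcript of each member and were compared in the sense direction only. Overlaps on the opposite strand, given next, could therefore not count. Fto holds 8 other annotated models within its span, some on each strand. Those on the opposite strand include the antisense models 4831440D22Rik over 25078 bp and Gm3235 over 8282 bp. Mettl3 overlaps Tox4 on the opposite strand over 1561 bp. Whether counting used strand is not given in the sources read here. Tox4 was at 77.5 and 75.0 TPM in WT and 59.0 and 61.7 in Tet2 KO.

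Of 18 tested other m6A genes (further writers, methyltransferases and readers), 3 rose and 2 fell, against 22.1% and 26.7% of all genes, and the median log2 difference was -0.02 (0.56 with ERCC scaling), against -0.12 (0.43) over all genes tested. Igf2bp3, a reader that stabilises methylated RNA, rose from 0.53 and 0.41 TPM to 3.22 and 6.43 (limma log2 1.93 ± 0.36; adjusted p = 0.000865). Igf2bp2, of the same family, rose from 4.14 and 3.97 to 9.46 and 6.96 (log2 0.85 ± 0.31; limma adjusted p = 0.0342). Rbmx, an RNA-binding protein of the nucleus, was at 14.4 and 15.2 in WT and 47.0 and 52.0 in Tet2 KO (log2 1.68 ± 0.21; limma adjusted p = 6.4e-06). Its near-identical copy Rbmxl1 went the other way, at 80.6 and 80.5 against 52.5 and 63.1, so the division of reads is uncertain. Their sum was 94.96 and 95.7 TPM in WT and 99.5 and 115 in Tet2 KO. Hnrnpc, which binds RNA whose structure m6A opens, fell from 218 in both WT libraries to 142 in both Tet2 KO libraries (log2 -0.61 ± 0.21; limma adjusted p = 0.0238). With ERCC scaling its log2 difference was -0.02 and the call was lost. Mettl5, a methyltransferase of ribosomal RNA, also fell, from 10.4 and 10.7 to 4.31 and 6.32, a call lost with ERCC scaling; the naming rule did not choose it, and it is named after its values were seen.

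Of 10 genes that make and recycle SAM, 4 fell and 0 rose, against 26.7% and 22.1% of all genes tested, with a median log2 difference of -0.56 (-0.02 with ERCC scaling). Adk, which clears the adenosine released by the cycle, fell from 24.2 and 24.0 TPM to 4.09 and 4.57 (limma log2 -2.23 ± 0.30; adjusted p = 1.3e-05). Ahcyl2, a relative of the enzyme that breaks down S-adenosylhomocysteine, fell from 35.9 and 34.95 to 10.5 and 13.2. Mtap, of the methionine salvage route, fell from 9.74 and 9.34 to 2.19 and 3.09 (limma adjusted p = 0.000833). These calls held with ERCC scaling. Of the 7 other genes of the ALKBH family of oxygenases, to which FTO and ALKBH5 belong, 4 fell and 0 rose, beside the same 26.7% and 22.1% of all genes, with a median of -0.89 (-0.33 with ERCC scaling). Alkbh1 fell from 29.1 and 28.9 to 12.4 and 14.04, and Alkbh2, a DNA repair enzyme, from 3.54 and 4.12 to 1.14 and 1.00. Alkbh6 and Alkbh7 also fell. Under ERCC scaling the calls of Alkbh1, Alkbh6 and Alkbh7 were lost.

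Of 12 genes of CCR4-NOT, the deadenylase that YTHDF2 recruits, and related decay factors, 1 rose and 0 fell, where 22.1% and 26.7% of all genes did, with a median log2 difference of 0.0051 (0.60 with ERCC scaling). That gene, Cnot6l, a catalytic subunit, rose from 23.0 and 23.7 TPM to 40.9 and 38.7 (log2 0.75 ± 0.21; limma adjusted p = 0.00701). Of 6 partners of YTHDC1 in splicing, 3′ end formation and export, 1 rose and 1 fell, beside the same shares, with a median of -0.34 (0.26 with ERCC scaling). Srsf3, a splicing factor, fell from 257 and 253 to 148 and 185 (limma adjusted p = 0.0317), a call lost with ERCC scaling. Cpsf6, a 3′ end processing factor, rose from 25.1 and 27.99 to 40.0 and 40.7 (limma adjusted p = 0.0250).

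Of 15 tested transcripts studied as m6A targets in leukaemia, 4 rose and 7 fell, against 22.1% and 26.7% of all genes tested, with a median log2 difference of -0.40 (0.19 with ERCC scaling). Myc fell from 57.5 and 57.0 TPM to 12.2 and 13.8 (limma log2 -2.06 ± 0.23; adjusted p = 2.7e-06). Bcl2, which blocks apoptosis, fell from 5.59 and 5.55 to 0.51 and 0.33. Axl, a receptor kinase, fell from 54.8 and 53.1 to 6.60 and 9.93. Asb2 and Rara, both studied as FTO targets, went opposite ways: Asb2 fell from 1.85 and 2.13 to 0.07 and 0.10, and Rara rose from 36.3 and 34.7 to 102 and 85.3. RNA methylation was not measured, so these are levels only.

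**Figure D5:**
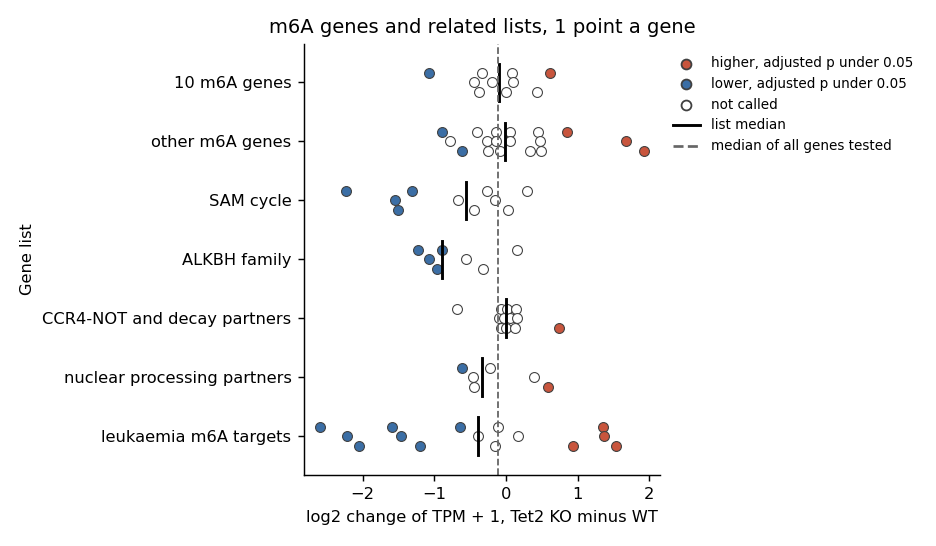
Log2 difference, Tet2 KO minus WT, of each tested gene (points) in the 10 m6A genes and the related lists, with filled points called by limma, a bar at each list's median and a dashed line at the median of all genes tested (-0.12). The 10 m6A genes span -1.08 to 0.61, and the widest span among the lists reaches down to -2.59 among the leukaemia targets.

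Genes whose 4 library values came closest to Ythdf3 were Arf2, Grcc10 and Fam13b, with root mean square log2 differences of 0.033, 0.074 and 0.075 over the 4 libraries. For Fto they were Ddx51, Dhx35 and Pkd1, at 0.043, 0.048 and 0.055. Arf2 was at 58.6 and 59.0 TPM in WT and 86.4 and 86.6 in Tet2 KO, and Ddx51 was at 15.8 in both WT libraries and 6.17 and 7.99 in Tet2 KO.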

How the data were processed

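Bulk RNA-seq values were analysed as TPM, deposited by the authors. Per the submitters' processing notes, the tools were STAR and RSEM and the genome build was mm10. The sources used here give no version or counting annotation. The members and gene lists were chosen with earlier results of these data known. ERCC rows (92) were left out of tests. The mean of the WT libraries was compared with the 2 Tet2 KO libraries on the log2(TPM + 1) scale by limma 3.58.1 (R 4.3.3), with a variance trend and robust estimation, for 11919 genes with at least 1 TPM in 2 libraries. The fit was also run on simulated data with few genes changed and the same spread in both groups. Here 48.8% of genes were called and the groups differed in spread, so that run does not check these calls. With 1 residual degree of freedom the spread comes from the Tet2 KO libraries. Fold changes on this scale understate changes of low genes. Depth was estimated from whole-read steps of single-transcript genes, of which 74.0% to 76.9% of values lay within 0.2 of a whole number of reads. Library totals and the reads of each member used the longest annotated transcript of a gene. Where shorter transcripts dominate, these estimates are too high. Named genes were all members, up to 4 called genes of a list with the smallest p in its main direction and 1 in the other, and the 3 nearest patterns of Fto and Ythdf3. A gene that this rule chose is not reported here. Same-numbered libraries did not deviate together (correlation of residuals -0.01), so the numbers are not used as pairs. Coordinates are from GENCODE vM21 and count from 1. The 14 alternatives are described in the closing section.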

Additional observations from a re-analysis of the deposited data

How the results depend on the processing

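Over 14 alternatives for each of the 10 genes (140 values), 104 kept direction and side of the threshold, 22 passed it newly with the same sign, 4 lost it and 10 changed sign, of which Mettl3 with ERCC scaling also passed it. With both WT libraries as samples, 3520 genes were called higher and 4517 lower, with 2 and 4 of the 10; with the replicate block as well, 3495 and 4461, with 2 and 3 (Mettl16, adjusted p = 0.0227, Ythdf1, 0.0132, and Ythdc1, 0.00856, joined Fto and Ythdf3 in limma). Without the filter on low values the counts were 123 and 295, with 0 and 0 of the 10. That fit also tested lower genes, so its counts are out of more than 11919 genes. With ERCC scaling they were 4942 and 1492 (76.8% higher, against 45.2%), with 5 and 0, and signs changed for Mettl3 (0.57), Mettl14 (0.23), Mettl16 (0.12), Alkbh5 (0.40) and Ythdf1 (0.21). Mettl3, near 0, was also positive with quantile normalization (0.060), median centring (0.085) and without the 100 most abundant genes (0.093). In the last of these, 2 of the 10 were called higher and 1 lower, against 2867 and 2700 of 11919 genes tested. Without trend and robust estimation, 0 of the 10 were higher and 1 lower, against 2305 and 2776 of the same 11919 genes. Leaving out 1 library gave 2651 to 4321 genes higher and 3192 to 5674 lower, 1 to 3 of the 10 higher and 1 to 5 lower; Mettl3 ranged from -0.034 to 0.022 and Wtap from -0.0082 to 0.18. The fits without a Tet2 KO library also took both WT libraries as samples, so 2 choices differ there. Adjusted p ranged from 0.000146 to 0.196 for Fto and from 0.000154 to 0.0711 for Ythdf3. Fto, with 342 estimated reads at its lowest, had the largest SE of the 10 (0.30).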
